A study of Mus musculus with 10 samples.

Results

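The cytochrome P450 genes of mouse liver endothelial cells were taken as every protein-coding gene of the deposited count files whose symbol was Cyp followed by a family number, subfamily letters and a member number, with the sterol synthesis enzyme Cyp51 left out. This gave 99 genes among 55385 listed genes, in 39 subfamilies and on 15 chromosomes. Of the 99, 18 had no count in any library and 49 passed the filter on low counts and were tested.

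Cytochrome P450 enzymes are haem proteins that insert an oxygen atom into their substrates, with electrons passed to them by the reductase Por in the endoplasmic reticulum or by ferredoxin in mitochondria. The liver uses them to clear drugs and toxins, to make bile acids from cholesterol and to oxidise fatty acids, and most of that work is done in hepatocytes near the central vein. Other cell types hold a smaller set, which acts on retinoic acid, arachidonic acid and other local mediators.

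RNA from hepatic endothelial cells was sequenced in 10 libraries, 5 labelled Alk1-HEC-KO with genotype KO and 5 labelled Control with genotype WT. Alk1 is the receptor encoded by Acvrl1. In both groups a Nycodenz density gradient was used to set non-parenchymal cells apart, and endothelial cells were then bound to magnetic beads coated with antibody against CD146, the Mcam protein. The sources used here do not give the strain, the age, the promoter that drives the deletion or the deleted exons. They also do not say whether each library was 1 animal, and the p-values therefore refer to the spread among these libraries, part of which may be technical.

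The targeted gene went against its label. Acvrl1 stood at 239 to 258 CPM (counts scaled to a fixed library size) in the KO-labelled libraries and at 114 to 136 CPM in the Control libraries, a log2 fold change of 0.96 ± 0.05 (SE) and an adjusted p of 1.7e-07 in edgeR's quasi-likelihood test with Benjamini-Hochberg adjustment. The groups are therefore called KO-labelled and Control throughout. Depth was nearly equal, at 23489494 to 23602771 estimated counts in each library. All 8 endothelial markers were detected in both groups, with summed levels of 13292 to 14153 CPM in KO-labelled and 15631 to 17758 CPM in Control libraries. The 20 hepatocyte markers were detected too, at 898 to 1984 CPM in KO-labelled and 936 to 3092 CPM in Control libraries, and Controls 2 and 4 held the highest sums. Other markers differed between the groups too, and their part in the P450 results was not tested. Of the 8 endothelial markers 4 fell, among them the sinusoidal lectin gene Clec4g (log2 fold change -0.63), and 2 rose, among them Mcam (0.71), whose protein the beads bind. Of 5 bile duct markers 4 rose, among them Epcam (1.14), with sums of 358 to 612 CPM in KO-labelled and 181 to 261 CPM in Control libraries. Of 7 stellate cell and fibroblast markers 2 rose, the collagen genes Col1a1 (1.61) and Col3a1 (1.23), with sums of 172 to 236 CPM in KO-labelled and 103 to 188 CPM in Control libraries. Of 5 T and NK cell markers 2 fell, at sums of 12.0 to 26.6 CPM in KO-labelled and 16.6 to 21.9 CPM in Control libraries. None of 7 Kupffer cell markers (383 to 969 CPM in KO-labelled and 417 to 1330 CPM in Control libraries) and none of 4 B cell markers (11.5 to 33.7 CPM in KO-labelled and 9.72 to 17.0 CPM in Control libraries) passed in edgeR, DESeq2 or limma-voom, and 1 Kupffer cell marker and 0 B cell markers had an unadjusted p under 0.05 in edgeR. Y-linked transcripts were present in all 10 libraries, at 142 to 167 CPM.

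Most of the P450 genes that could be tested were lower in the KO-labelled libraries. Of the 49 tested genes 30 fell, 1 rose and 18 did not pass the test, beside 9.08% of all 15043 tested genes that fell and 10.6% that rose. The median log2 fold change of the 49 was -1.73, against 7.77e-05 over all tested genes. A gene that passes the filter through 1 group alone is bound to differ, and 10 of the 49 were over the filter in fewer than 5 KO-labelled libraries. Of the 30 that fell, 23 were over it in all 10 libraries. The rest were Cyp2a5, Cyp2ab1, Cyp2c37, Cyp2c67, Cyp2d40, Cyp4a10 and Cyp4a12b, over it in all 5 Control but only 1 to 4 KO-labelled libraries. In 27 of the 49 every KO-labelled library lay below every Control library, which held for 7.05% of all tested genes, and in 1 every KO-labelled library lay above, against 8.4%. Summed over subfamilies, 15 of 25 tested subfamilies fell and 1 rose, beside 9.02% and 10.6% of all features in that fit. With limma-voom in place of edgeR 15 P450 genes fell and 1 rose, beside 8.54% and 10.6% of all tested genes, and 13 subfamilies fell and 1 rose. Scaling changed the balance over all genes, with 1366 lower and 1593 higher in the main test, 1024 and 1968 with library size alone, and 664 and 1819 on log2(TPM + 1), while the P450 genes gave 30 and 1, 29 and 1, and 28 and 1. Fewer cells of a type and less RNA per cell cannot be told apart in these bulk libraries.

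**Figure D1:**
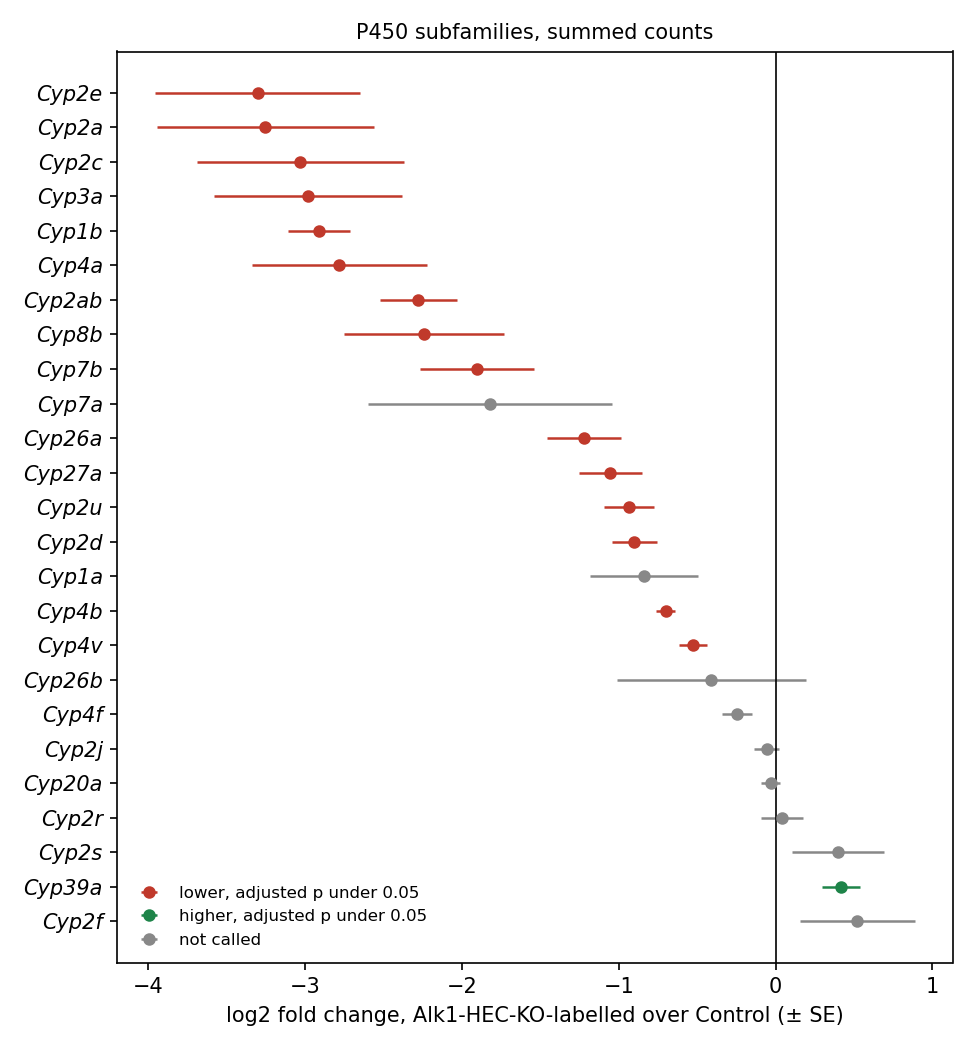
Log2 fold change of summed counts, KO-labelled over Control libraries, for the 25 tested P450 subfamilies (points, with SE as horizontal lines; n = 5 libraries per group). Subfamilies in red fell, Cyp39a in green rose and those in grey did not pass the test.

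The level of P450 transcripts was set by a few genes. Per transcript length, Cyp4b1, a fatty acid and xenobiotic hydroxylase abundant in lung, ranked first in both groups, at 936 ± 56.3 TPM (a scale corrected for transcript length, SD, n = 5) in KO-labelled and 1417 ± 116 TPM in Control libraries. It made up 51.5 to 69.2% of all P450 TPM in KO-labelled and 45.9 to 66.6% in Control libraries. Cyp26b1, which breaks down retinoic acid, ranked second in both, at 247 ± 178 TPM in KO-labelled and 310 ± 175 TPM in Control libraries. In the KO-labelled group Cyp2d22 followed at 90.5 ± 12.8 TPM and Cyp20a1 at 41.2 ± 2.17 TPM. In the Control group Cyp2e1 (132 ± 106 TPM), Cyp2d22 (129 ± 16.2 TPM) and Cyp3a11 (75.8 ± 54.4 TPM) came next, and these neighbours differed by less than the SD of Cyp2e1. Without Cyp4b1 and Cyp26b1 the summed P450 level was 423 ± 24.7 CPM in KO-labelled and 993 ± 442 CPM in Control libraries, and the ranges of 397 to 458 CPM and 594 to 1615 CPM did not overlap.

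**Figure D2:**
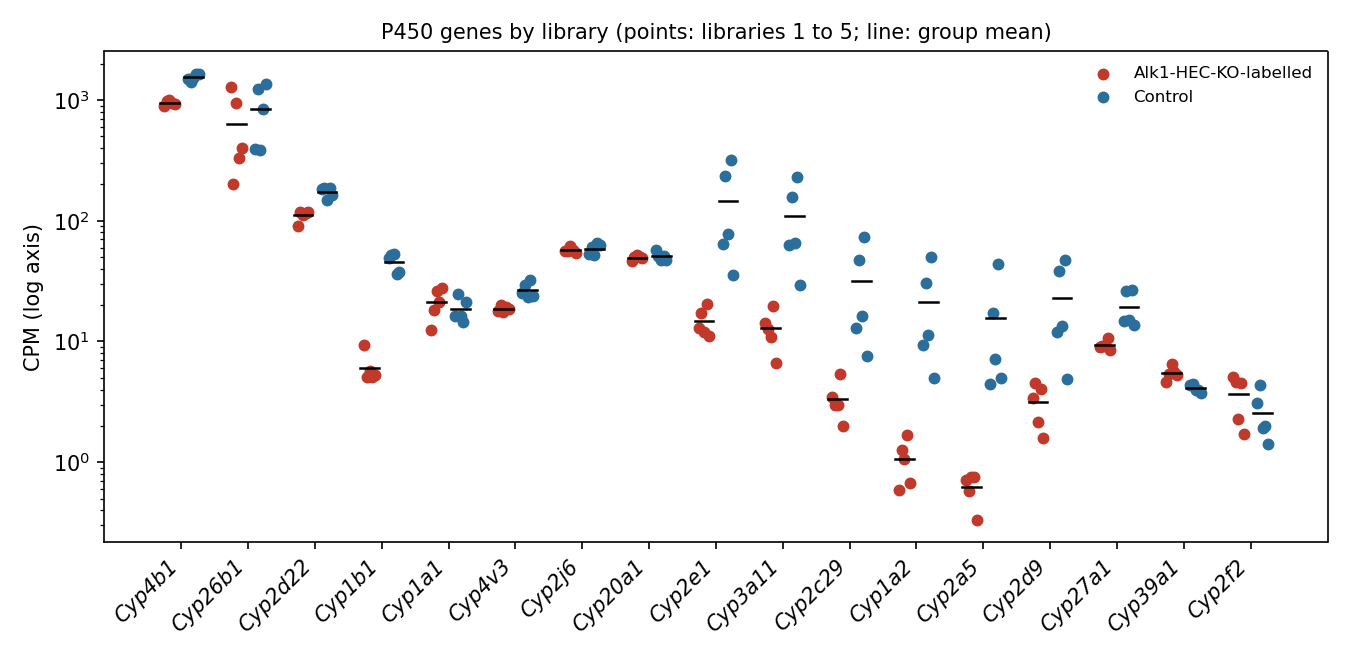
Levels of 17 P450 genes in CPM on a log axis (points are libraries 1 to 5 of each group, KO-labelled left of Control; black lines are group means). Cyp1b1, Cyp4b1, Cyp2d22 and Cyp4v3 separated the groups with little spread among Controls, while Cyp2e1, Cyp3a11, Cyp2c29, Cyp1a2, Cyp2a5 and Cyp2d9 spread widely over the 5 Controls.

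Among the 51 genes of drug and xenobiotic metabolism, 20 of 25 tested genes fell and none rose in edgeR's test (22 and 0 at an unadjusted p under 0.05, 22 and 0 with DESeq2, 7 and 0 with limma-voom). Cyp1b1, an enzyme of many tissues outside the liver parenchyma that oxidises estradiol, retinoids and arachidonic acid, had the smallest adjusted p of the tested P450 genes. It had 9.36, 5.05, 5.71, 5.09 and 5.23 CPM in the KO-labelled libraries, against 48.9, 51.9, 53.5, 36.5 and 38.0 CPM in the Controls. All KO-labelled values lay far below the lowest Control, although KO-labelled library 1 stood above the other four. Cyp1b1 fell 7.51-fold, with a log2 fold change of -2.91 ± 0.20 (SE) and an adjusted p of 3.5e-06 in edgeR's quasi-likelihood test.

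Of the Cyp1a genes, the best known targets of the aryl hydrocarbon receptor Ahr, Cyp1a2 fell and Cyp1a1 did not pass the test. Cyp1a1 had 12.4, 18.3, 26.1, 21.3 and 27.9 CPM in KO-labelled libraries, against 16.1, 24.8, 16.2, 14.4 and 21.2 CPM in Controls. The groups overlapped, and the log2 fold change of 0.19 ± 0.23 had an adjusted p of 0.61 in edgeR's test. Cyp1a2, an enzyme of hepatocytes near the central vein that clears caffeine, had 0.588, 1.27, 1.06, 1.68 and 0.669 CPM in KO-labelled libraries, against 9.29, 30.6, 11.3, 50.2 and 5.00 CPM in Controls. Its groups did not overlap, with Controls 2 and 4 highest, and it fell 20.1-fold (log2 fold change -4.33 ± 0.74, adjusted p = 0.0035 in edgeR's test). Without Control 4 the log2 fold change of Cyp1a2 was -3.73, and with limma-voom its adjusted p was 0.063. Summed over both genes, Cyp1a was 22.3 ± 6.30 CPM in KO-labelled and 39.8 ± 18.7 CPM in Control libraries (SD, n = 5 each, adjusted p = 0.12 in edgeR's test).

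The 250 bases before the RefSeq start of these genes (GRCm38.p6) are shown because Cyp1b1, Cyp1a1 and Cyp1a2 differed in their values while Ahr itself fell. Capitals mark matches, on either strand, to GCGTG (the core bound by Ahr with Arnt), CTTTGA (a core of the TCF factors of Wnt signalling) and TATAAA (the TATA box). Cyp4b1 and Cyp2e1 are added as the highest gene of both groups and as a gene of hepatocytes near the central vein.
Cyp1b1 (chr17:79715062-79715311, minus strand): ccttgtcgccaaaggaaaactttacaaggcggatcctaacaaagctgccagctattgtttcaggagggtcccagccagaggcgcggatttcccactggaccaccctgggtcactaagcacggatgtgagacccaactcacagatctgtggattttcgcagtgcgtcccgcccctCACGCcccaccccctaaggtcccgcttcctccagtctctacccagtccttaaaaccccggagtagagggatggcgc
Cyp1a1 (chr9:57697363-57697612, plus strand): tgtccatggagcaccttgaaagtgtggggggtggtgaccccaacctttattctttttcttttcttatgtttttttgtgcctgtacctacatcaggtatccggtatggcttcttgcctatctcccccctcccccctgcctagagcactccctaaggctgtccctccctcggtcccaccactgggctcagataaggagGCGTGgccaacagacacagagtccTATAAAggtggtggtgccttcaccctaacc
Cyp1a2 (chr9:57683656-57683905, minus strand): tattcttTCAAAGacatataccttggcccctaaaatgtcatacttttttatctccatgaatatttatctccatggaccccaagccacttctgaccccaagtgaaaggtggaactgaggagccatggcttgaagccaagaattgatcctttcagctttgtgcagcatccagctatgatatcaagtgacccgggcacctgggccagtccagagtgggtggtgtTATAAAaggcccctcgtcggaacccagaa
Cyp4b1 (chr4:115647722-115647971, minus strand): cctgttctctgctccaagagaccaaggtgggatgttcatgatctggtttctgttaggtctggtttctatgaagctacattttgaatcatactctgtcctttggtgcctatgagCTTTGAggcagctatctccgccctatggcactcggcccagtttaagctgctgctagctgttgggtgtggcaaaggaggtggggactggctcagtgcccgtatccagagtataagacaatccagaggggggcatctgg
Cyp2e1 (chr7:140763569-140763818, plus strand): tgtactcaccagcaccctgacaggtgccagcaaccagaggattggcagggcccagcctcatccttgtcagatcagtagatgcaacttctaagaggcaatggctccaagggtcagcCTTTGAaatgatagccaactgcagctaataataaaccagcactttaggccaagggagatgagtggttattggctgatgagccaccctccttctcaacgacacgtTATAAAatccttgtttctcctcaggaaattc
In these windows GCGTG was found in Cyp1b1 and Cyp1a1, CTTTGA in Cyp1a2, Cyp4b1 and Cyp2e1, and TATAAA in Cyp1a1, Cyp1a2 and Cyp2e1. Over all 32851 promoter windows of that length, 28.16% held GCGTG, 13.83% CTTTGA and 12.37% TATAAA. Of the 76 P450 members with an entry, 15 held GCGTG, 16 held CTTTGA and 28 held TATAAA. A match is a description of the letters and not a bound site.

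Cyp2e1, which oxidises ethanol and paracetamol in hepatocytes around the central vein, had 12.9, 17.3, 12.1, 20.4 and 11.1 CPM in KO-labelled libraries, against 64.5, 233, 78.1, 318 and 35.3 CPM in Controls. Every KO-labelled library was below the lowest Control, and the Controls themselves spread widely, with Controls 2 and 4 high and Control 5 low. Cyp2e1 had a log2 fold change of -3.30 ± 0.65 (adjusted p = 0.0081 in edgeR's test). Cyp3a11, a main drug-metabolising enzyme of mouse liver, had 14.1, 12.6, 10.9, 19.8 and 6.61 CPM in KO-labelled libraries, against 62.6, 158, 65.3, 232 and 29.4 CPM in Controls. The order of the Controls was the same as for Cyp2e1, and Cyp3a11 had a log2 fold change of -3.10 ± 0.61 (adjusted p = 0.0078 in edgeR's test). The 9 Cyp3a genes together, of which 3 were tested and 2 fell, summed to 14.9 ± 5.4 CPM in KO-labelled and 117 ± 88.8 CPM in Control libraries (log2 fold change -2.98 ± 0.60, adjusted p = 0.0087 in edgeR's test). Cyp3a13 did not pass (log2 fold change -1.29, adjusted p = 0.087 in edgeR's test), but passed with DESeq2 (0.045), without KO-labelled library 2 (0.049) or without Control 5 (0.050). Cyp3a25 stood at 0.669 to 1.64 CPM in KO-labelled and 2.26 to 10.9 CPM in Control libraries, without overlap, and fell (log2 fold change -2.23 ± 0.46, adjusted p = 0.0067 in edgeR's test).

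All 8 tested genes of the Cyp2c subfamily fell in edgeR's test, out of 15 members, while with limma-voom none of the 8 passed (adjusted p of 0.061 to 0.16) and the sum did (0.043). These enzymes clear drugs and form epoxides of arachidonic acid. Summed, Cyp2c had 16.1, 14.9, 9.90, 16.3 and 7.07 CPM in KO-labelled libraries, against 43.5, 165, 55.9, 233 and 27.5 CPM in Controls. The groups did not overlap, Control 5 was nearest to the KO-labelled libraries, and the sum fell 8.16-fold (log2 fold change -3.03 ± 0.66, adjusted p = 0.013 in edgeR's test). Per transcript length Cyp2c29 was the highest member in Controls, with 3.41 ± 1.17 TPM in KO-labelled and 29.2 ± 24.6 TPM in Control libraries (SD, n = 5 each), while in the KO-labelled group Cyp2c70 was slightly above it, at 4.03 ± 1.43 TPM. Cyp2c29 had 3.48, 2.96, 2.96, 5.34 and 2.01 CPM in KO-labelled libraries, against 13.0, 47.0, 16.3, 73.3 and 7.60 CPM in Controls (log2 fold change -3.23 ± 0.69, adjusted p = 0.011 in edgeR's test). Cyp2c37 had the most negative fold change of the tested P450 genes, within its SE of those of Cyp2a5 and Cyp1a2, and was over the filter in 2 of 5 KO-labelled and all 5 Control libraries. It had 0.427 ± 0.189 CPM in KO-labelled and 13.0 ± 13.1 CPM in Control libraries (log2 fold change -4.91 ± 0.84, adjusted p = 0.0034 in edgeR's test). Without Control 4 its log2 fold change was -4.17. The groups of Cyp2c54 (-3.80 ± 0.78, adjusted p = 0.0082), Cyp2c50 (-3.39 ± 0.65, 0.0063), Cyp2c67 (-3.00 ± 0.68, 0.014) and Cyp2c68 (-2.56 ± 0.60, 0.015) did not overlap. The highest KO-labelled value among these 4 genes was 2.27 CPM and the highest Control value 42.2 CPM, both for Cyp2c50. At the other end, Cyp2c23 (log2 fold change -2.19, adjusted p = 0.029) and Cyp2c70 (-1.73, adjusted p = 0.049) overlapped between groups. Both missed the threshold in edgeR's test without any 1 of the KO-labelled libraries (adjusted p of 0.057 to 0.073 for Cyp2c23 and 0.068 to 0.10 for Cyp2c70), without Control 2 (0.060 and 0.090) or without Control 4 (0.059 and 0.11). Cyp2c70 also missed it without Control 3 (0.068).

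Paralogs of Cyp2c share long stretches of sequence, and the quantification divides reads among them. The first 90 coding bases of the annotated transcripts of 4 members (GENCODE M21, chromosome 19) show how alike they are. Capitals mark the 19 positions that differ within the set.
Cyp2c29: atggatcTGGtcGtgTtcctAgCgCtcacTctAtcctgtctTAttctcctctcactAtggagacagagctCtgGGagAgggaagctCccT
Cyp2c37: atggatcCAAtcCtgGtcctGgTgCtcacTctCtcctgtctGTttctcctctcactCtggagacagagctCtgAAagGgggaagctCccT
Cyp2c50: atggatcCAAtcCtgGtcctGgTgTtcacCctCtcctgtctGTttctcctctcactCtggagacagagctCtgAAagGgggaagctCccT
Cyp2c54: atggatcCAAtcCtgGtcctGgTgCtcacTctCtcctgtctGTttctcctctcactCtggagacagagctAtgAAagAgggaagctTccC
Cyp2c29 matched Cyp2c50 at 74 of 90 bases, Cyp2c37 at 88 and Cyp2c54 at 84. Of the 31-base words of each gene's transcripts, 67.6% were shared with another Cyp2c gene for Cyp2c67, 62.0% for Cyp2c68, 47.4% for Cyp2c37 and 5.22% for Cyp2c29. For Cyp2c23 and Cyp2c70 the share was 0%. The split among the members that share many words is uncertain, while the summed value does not depend on it. Cyp2e1, Cyp1b1 and Cyp4b1 are the only members of their subfamilies, and words shared with genes outside a subfamily were not counted.

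The Cyp2a, Cyp2d and Cyp2ab subfamilies fell as well, but with limma-voom the Cyp2a sum (adjusted p = 0.076), Cyp2a5 (0.060), Cyp2d9 (0.10), Cyp2d10 (0.099) and Cyp2d26 (0.088) did not pass. Summed over 4 genes, Cyp2a had 2.81, 2.30, 1.69, 2.69 and 1.13 CPM in KO-labelled libraries, against 7.65, 23.7, 9.68, 54.2 and 6.45 CPM in Controls. The groups did not overlap and Control 4 was far above the rest, so that the log2 fold change of -3.25 ± 0.69 (adjusted p = 0.011 in edgeR's test) was -2.48 without it. Cyp2a5, which hydroxylates coumarin, fell (log2 fold change -4.61 ± 0.80, adjusted p = 0.0037, and -3.74 without Control 4, in edgeR's test). Cyp2a12 did not pass (-1.67 ± 0.53, adjusted p = 0.051 in edgeR's test), but passed with DESeq2 (0.0029) and without Control 3 (0.044) or Control 5 (0.020).

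Cyp2d22 carried most of the Cyp2d level. It had 91.0, 118, 112, 116 and 118 CPM in KO-labelled libraries, against 183, 187, 148, 188 and 163 CPM in Controls. The groups did not overlap, KO-labelled library 1 was below the other four of its group, and Cyp2d22 fell 1.56-fold (log2 fold change -0.64 ± 0.09, adjusted p = 2.2e-04 in edgeR's test). The other 4 tested members, Cyp2d9, Cyp2d10, Cyp2d26 and Cyp2d40, fell by 2.43 to 2.88 on the log2 scale (adjusted p of 0.0022 to 0.018 in edgeR's test), with Controls 2 and 4 the highest pair in each. Cyp2d40 was over the filter in 1 of 5 KO-labelled and all 5 Control libraries. Cyp2d9, a steroid hydroxylase of male mouse liver, had 3.40, 4.52, 2.16, 4.04 and 1.59 CPM in KO-labelled libraries, against 12.0, 38.3, 13.5, 46.9 and 4.87 CPM in Controls (adjusted p = 0.015 in edgeR's test). Cyp2ab1 was a low gene with steady values, at 0.294 to 0.698 CPM in KO-labelled and 2.22 to 3.01 CPM in Control libraries (log2 fold change -2.28 ± 0.25, adjusted p = 3.5e-05 in edgeR's test). Cyp2f2, which activates naphthalene and is found in hepatocytes around the portal vein, had 5.12, 4.64, 2.28, 4.50 and 1.71 CPM in KO-labelled libraries, against 3.07, 4.33, 1.92, 1.98 and 1.41 CPM in Controls. Its groups overlapped, with a log2 fold change of 0.52 ± 0.37 and an adjusted p of 0.36 in edgeR's test. Cyp2s1 did not pass either (0.40 ± 0.29, adjusted p = 0.39 in edgeR's test).

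Of the 29 genes that act mainly on fatty acids and eicosanoids, 6 of 15 tested genes fell and none rose in edgeR's test (9 and 0 at an unadjusted p under 0.05, 6 and 0 with DESeq2, 5 and 0 with limma-voom). Cyp4b1 had 889, 991, 999, 938 and 930 CPM in KO-labelled libraries, against 1493, 1398, 1533, 1643 and 1649 CPM in Controls. The 2 groups were narrow and far apart, and Cyp4b1 fell 1.63-fold (log2 fold change -0.70 ± 0.06, adjusted p = 7e-06 in edgeR's test). Cyp4v3, the mouse counterpart of a human fatty acid hydroxylase linked to a crystalline retinal dystrophy, had 17.8, 19.9, 17.6, 19.4 and 18.7 CPM in KO-labelled libraries, against 25.4, 29.6, 23.6, 32.2 and 23.6 CPM in Controls. The ranges did not meet, and Cyp4v3 fell 1.44-fold (log2 fold change -0.53 ± 0.09, adjusted p = 0.0015 in edgeR's test). Cyp2u1, which hydroxylates long-chain fatty acids, was low and steady, at 0.711 to 0.804 CPM in KO-labelled and 1.32 to 1.53 CPM in Control libraries (log2 fold change -0.93 ± 0.16, adjusted p = 0.0014 in edgeR's test).

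The Cyp4a genes are omega-hydroxylases of fatty acids that the receptor Ppara induces in hepatocytes. Summed over 8 genes, 3 of them tested, they had 3.78, 2.42, 1.69, 3.41 and 1.59 CPM in KO-labelled libraries, against 10.01, 21.2, 10.3, 40.8 and 6.49 CPM in Controls. The groups did not overlap, Controls 2 and 4 were again highest, and the sum fell 6.87-fold (log2 fold change -2.78 ± 0.56, adjusted p = 0.0079 in edgeR's test). Cyp4a12b, Cyp4a12a and Cyp4a10 fell by 3.60, 2.96 and 2.61 on the log2 scale. Cyp4a12b was over the filter in 1 of 5 KO-labelled and all 5 Control libraries. Of its 31-base words 62.9% were shared with other Cyp4a genes. With limma-voom Cyp4a12a did not pass (adjusted p = 0.056). Leaving out Control 4 gave log2 fold changes of -2.93 for Cyp4a12b and -2.02 for Cyp4a10.

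None of the 3 tested arachidonic acid epoxygenases of the Cyp2j subfamily passed the test with edgeR, DESeq2 or limma-voom, and 0 had an unadjusted p under 0.05 in edgeR. Cyp2j6 stood at 57.2 ± 2.62 CPM in KO-labelled and 58.6 ± 5.78 CPM in Control libraries (SD, n = 5 each), with a log2 fold change of -0.03 ± 0.07. Cyp2j9 (0.16 ± 0.11) and Cyp2j5 (-0.78 ± 0.38) overlapped between the groups as well, and the summed Cyp2j level had a log2 fold change of -0.06 ± 0.08 (adjusted p = 0.68 in edgeR's test). The 9 Cyp4f genes, which inactivate leukotrienes, summed to 53.0 ± 4.45 CPM in KO-labelled and 62.8 ± 9.32 CPM in Control libraries (log2 fold change -0.24 ± 0.10, adjusted p = 0.093 in edgeR's test). None of the 6 tested Cyp4f genes passed in edgeR, DESeq2 or limma-voom, and 3 were lower at an unadjusted p under 0.05 in edgeR. They had log2 fold changes of -1.46 for Cyp4f15, -0.39 for Cyp4f17, -0.31 for Cyp4f13, -0.28 for Cyp4f14, -0.17 for Cyp4f16 and 0.06 for Cyp4f18. Without Control 1 the summed Cyp4f level passed the test (adjusted p = 0.047), as did Cyp4f13 (0.033). Cyp4f13 also passed without KO-labelled library 4 (0.033) and Cyp4f15 without Control 5 (0.031). Cyp4f18 overlaps Zfp961 on the opposite strand, so its reads are uncertain.

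Of the 6 genes of bile acid and oxysterol synthesis, 3 of 5 tested genes fell and 1 rose. Cyp7a1, the rate-limiting enzyme of the classic pathway, was low and did not pass, at 0.127 to 0.822 CPM in KO-labelled and 0.171 to 3.46 CPM in Control libraries (log2 fold change -1.82 ± 0.78, adjusted p = 0.13 in edgeR's test). Cyp8b1, which directs synthesis to cholic acid, had 2.48, 2.67, 1.57, 1.43 and 1.42 CPM in KO-labelled libraries, against 5.13, 13.0, 5.67, 18.7 and 2.95 CPM in Controls. These groups did not overlap, although Control 5 came close, and Cyp8b1 fell 4.73-fold (log2 fold change -2.24 ± 0.51, adjusted p = 0.012 in edgeR's test and 0.063 with limma-voom).

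Cyp27a1, the mitochondrial enzyme that opens the acidic pathway and is made by many cell types, had 9.07, 9.12, 9.22, 10.6 and 8.45 CPM in KO-labelled libraries, against 14.8, 26.1, 15.2, 26.8 and 13.6 CPM in Controls. KO-labelled values were nearly equal, Controls 2 and 4 were again high, and Cyp27a1 fell 2.08-fold (log2 fold change -1.05 ± 0.20, adjusted p = 0.0038 in edgeR's test). Cyp7b1, which hydroxylates oxysterols, had 6.002, 4.03, 2.79, 3.87 and 2.64 CPM in KO-labelled libraries, against 8.07, 20.7, 10.3, 23.6 and 9.56 CPM in Controls. No KO-labelled library reached the lowest Control, and Cyp7b1 fell 3.73-fold (log2 fold change -1.90 ± 0.36, adjusted p = 0.0049 in edgeR's test). Cyp39a1, another oxysterol hydroxylase, was the 1 P450 gene that rose. It had 4.62, 5.38, 6.52, 5.63 and 5.23 CPM in KO-labelled libraries, against 4.37, 4.42, 3.97, 3.96 and 3.76 CPM in Controls. The groups did not overlap but nearly met, and the rise was 1.34-fold (log2 fold change 0.42 ± 0.12, adjusted p = 0.027 in edgeR's test). It missed the threshold without KO-labelled library 2 (0.056), 3 (0.079) or 4 (0.056), and without Control 3 (0.053), 4 (0.062) or 5 (0.060).

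Of the 3 Cyp26 genes, which break down retinoic acid, 1 of 2 tested genes fell. Cyp26b1 had 1282, 201, 954, 330 and 400 CPM in KO-labelled libraries, against 393, 1227, 385, 837 and 1361 CPM in Controls. High and low libraries occurred in both groups, and the log2 fold change of -0.41 ± 0.60 had an adjusted p of 0.70 in edgeR's test. Cyp26a1 was low, at 0.423 to 0.923 CPM in KO-labelled and 1.12 to 1.57 CPM in Control libraries, and fell 2.33-fold (log2 fold change -1.22 ± 0.24, adjusted p = 0.003 in edgeR's test).

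Among the remaining genes, Cyp2r1, a vitamin D hydroxylase, was at 2.35 ± 0.237 CPM in KO-labelled and 2.28 ± 0.0712 CPM in Control libraries and did not pass the test (log2 fold change 0.04 ± 0.14). The orphan enzyme Cyp20a1 was at 49.6 ± 2.21 CPM in KO-labelled and 50.6 ± 3.92 CPM in Control libraries (log2 fold change -0.03 ± 0.06, adjusted p = 0.77 in edgeR's test). None of the 6 genes of steroid hormone synthesis was tested. The 50 members that were not tested lay in all roles but the orphan one, and the highest group mean among them was 1.75 CPM, for Cyp2c40.

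The 30 genes that fell differed in how much their Controls varied. In 21 of them the highest Control was at least 3 times the lowest (4.10 to 13.9 times), and these fell by 1.73 to 4.91 on the log2 scale. In 8 the Controls spread by less than 2 times (1.15 to 1.97 times). These were Cyp2ab1, Cyp1b1, Cyp26a1, Cyp27a1, Cyp2u1, Cyp4b1, Cyp2d22 and Cyp4v3, and they fell by 0.53 to 2.91 on the log2 scale. Cyp7b1 lay between, at 2.93 times. Control 4 was the highest Control in 24 of the 30 genes, Controls 2 and 4 were the highest pair in 24, and Control 5 was the lowest in 21. The values of 2 and 3 times that divide these classes were chosen after the values were seen.

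Controls 2 and 4 also held the most hepatocyte RNA among Controls. The 20 hepatocyte markers, none of them a P450 gene, summed to 1615, 1984, 1069, 1239 and 898 CPM in KO-labelled libraries, against 1310, 3092, 1596, 2871 and 936 CPM in Controls. The groups overlapped. The median log2 fold change of these markers was -0.80. Of the 20, 2 fell, Apoa2 and Apoh, and none rose (8 lower and 0 higher at an unadjusted p under 0.05, 6 and 0 with DESeq2, 0 and 0 with limma-voom), beside 9.08% and 10.6% of all tested genes in the main test. Both lost the call in several fits that left out a library, at adjusted p of 0.062 to 0.085 for Apoa2 without any 1 KO-labelled library, Control 2 or Control 4. For Apoh the fits without KO-labelled library 1, 3, 4 or 5, Control 2 or Control 4 gave 0.058 to 0.066. Alb, the albumin gene, had 457, 727, 364, 376 and 309 CPM in KO-labelled libraries, against 395, 708, 344, 644 and 264 CPM in Controls (log2 fold change -0.08 ± 0.33, adjusted p = 0.91 in edgeR's test).

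Summed P450 genes known from hepatocytes near the central vein were lower in KO-labelled libraries also against the hepatocyte markers of the same library. The 14 genes of that list summed to 46.9, 49.9, 40.7, 65.1 and 32.4 CPM in KO-labelled libraries, against 193, 583, 218, 865 and 110 CPM in Controls. Every KO-labelled library was below every Control, and 11 of 12 tested members fell, with a median log2 fold change of -3.26. Beside them 30 of the 49 tested P450 genes and 9.08% of all tested genes fell. The list was drawn up with earlier results of these data known, so its counts are a description and not an independent test. Per 100 CPM of hepatocyte markers in the same library, the list stood at 2.51 to 5.26 CPM in KO-labelled and at 11.7 to 30.1 CPM in Control libraries. The marker sum leans on its largest terms, Alb (means of 447 CPM in KO-labelled and 471 CPM in Control libraries) and Trf (244 and 253 CPM). Their log2 fold changes were -0.08 and -0.05, against a median of -0.80 over the 20 markers, so the size of these ratios depends on the markers chosen. Cyp2e1 alone stood at 0.80 to 1.65 CPM per 100 CPM in KO-labelled and 3.77 to 11.1 CPM in Control libraries, again without overlap. Cyp3a11 did not overlap either, at 0.64 to 1.60 CPM in KO-labelled and 3.14 to 8.10 CPM in Control libraries. Cyp27a1, also on the list, did overlap, at 0.46 to 0.94 CPM in KO-labelled and 0.85 to 1.45 CPM in Control libraries. The other members of the list were not set against the markers singly. Genes off the list were lower too. Cyp2d9 stood at 0.177 to 0.326 CPM per 100 CPM in KO-labelled and 0.520 to 1.63 CPM in Control libraries. Cyp8b1 stood at 0.115 to 0.158 CPM in KO-labelled and 0.315 to 0.650 CPM in Control libraries. Cyp1b1, at 0.255 to 0.582 CPM and 1.27 to 4.05 CPM, did not overlap either. Cyp2f2 and Cyp4b1 did overlap.

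**Figure D3:**
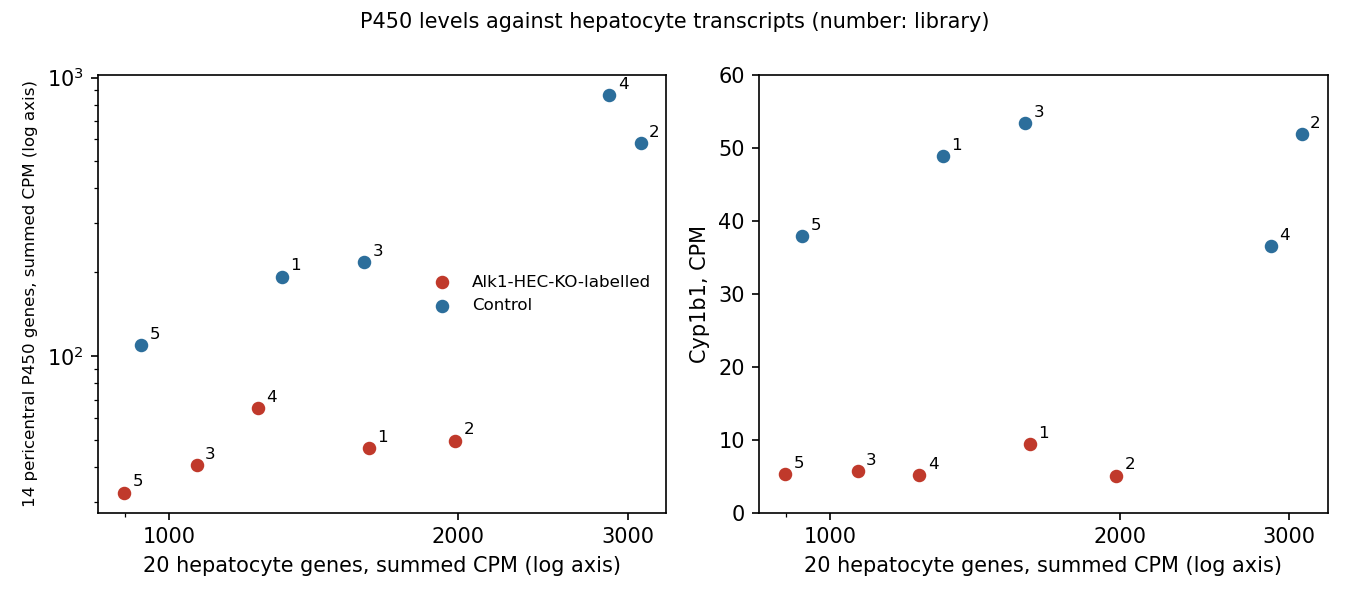
Summed CPM of 14 pericentral P450 genes (left, log axis) and CPM of Cyp1b1 (right, linear axis) against summed CPM of 20 hepatocyte markers (log axis), 1 point per library, numbered within its group. In both plots the KO-labelled libraries lie below the Controls at like hepatocyte levels, and the pericentral sum is highest in Controls 2 and 4 while Cyp1b1 is not.

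Genes other than P450 known from the same hepatocytes fell more often than they rose. Of 10 such markers 8 were tested, 5 fell, 1 rose and 2 did not pass, beside 9.08% and 10.6% of all tested genes. Their median log2 fold change was -1.75. The 2 that did not pass were Rgn (-1.56, adjusted p = 0.064 in edgeR's test) and Axin2 (-0.32, 0.17). Gulo, the last enzyme of vitamin C synthesis, had 0.963 ± 0.199 CPM in KO-labelled and 13.9 ± 11.4 CPM in Control libraries (SD, n = 5 each, log2 fold change -3.84 ± 0.60, adjusted p = 0.002 in edgeR's test). Lect2, a secreted hepatocyte protein, fell (-4.60 ± 0.71, adjusted p = 0.0011, and -3.90 without Control 4, in edgeR's test). Slc1a2, a glutamate transporter, fell (-2.81 ± 0.59, adjusted p = 0.0078, and -2.06 without Control 4, in edgeR's test), as did Oat, the ornithine aminotransferase (-0.79 ± 0.15, adjusted p = 0.0041). Glul, the glutamine synthetase of the cells next to the central vein, which other cells make too, rose (0.39 ± 0.11, adjusted p = 0.027 in edgeR's test). The calls for Glul and for Tbx3 (-1.93 ± 0.60, adjusted p = 0.043) were each lost in several fits that left out a library, for Glul at 0.054 to 0.065 without KO-labelled library 1 or 4 or Control 1, 4 or 5, and for Tbx3 at 0.061 to 0.10 without KO-labelled library 2, 3, 4 or 5 or Control 2 or 4. None of the 10 markers of hepatocytes around the portal vein passed edgeR's test, and their median log2 fold change was 0.69. At an unadjusted p under 0.05 2 were higher and 0 lower, and DESeq2 called 1 higher and limma-voom 0.

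With the mean log2 CPM of the hepatocyte markers as a covariate in edgeR's test, 28 P450 genes fell and none rose (30 and 2 at an unadjusted p under 0.05), beside 6.58% and 7.75% of all tested genes, and all 28 were among the 30. Cyp2c23 (adjusted p = 0.063) and Cyp2c70 (0.068) were lost, as was Cyp39a1 (0.092). In the 21 genes with widely spread Controls the median log2 fold change was -2.96 without the covariate and -1.67 with it, and 19 of them still fell. In the 8 genes with narrow Controls these medians were -0.99 and -0.82, and all 8 still fell. The classes were cut by the spread of the Controls, and Controls 2 and 4 were highest both on the covariate and in most widely spread genes. A larger shift in that class was thereby partly built in. Cyp1b1 had -2.82 with the covariate, Cyp4b1 -0.73, Cyp2e1 -1.89 and Cyp1a2 -2.88. The part of hepatocyte RNA in these changes was not tested.

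**Figure D4:**
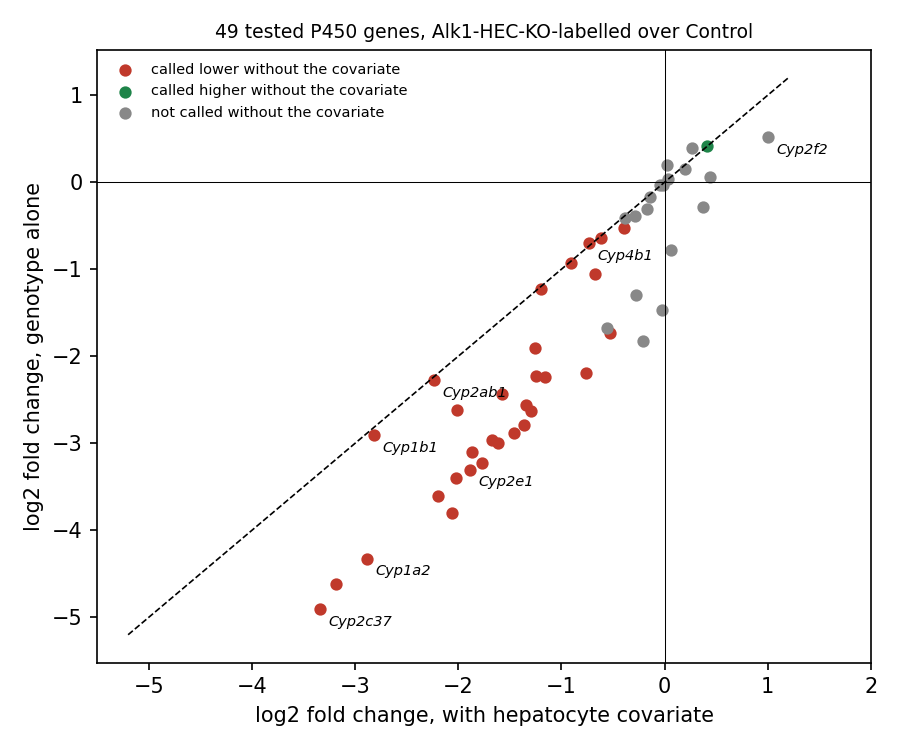
Log2 fold change, KO-labelled over Control, of the 49 tested P450 genes with the hepatocyte covariate (horizontal axis) and with genotype alone (vertical axis), 1 point per gene, with the line of equal values dashed. Cyp1b1, Cyp2ab1 and Cyp4b1 lie near that line, at -2.82, -2.23 and -0.73 with the covariate, while Cyp2e1 and Cyp2c37 lie below it, at -1.89 and -3.34.

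Among liver P450 genes with a known sex bias in mice, those of the male side fell and those of the female side were too low to be tested. The 4 male-biased genes Cyp4a12a, Cyp4a12b, Cyp2d9 and Cyp7b1 all fell in edgeR's test, beside 30 of the 49 tested P450 genes and 9.08% of all tested genes. With limma-voom Cyp4a12a (adjusted p = 0.056) and Cyp2d9 (0.10) did not pass. The 4 genes had summed levels of 4.85 to 11.8 CPM in KO-labelled and 17.9 to 98.9 CPM in Control libraries and a median log2 fold change of -2.92. None of the 9 female-biased genes was tested, and 6 of them had no count in any library. Their sums were also lower in every KO-labelled library, at 0 to 0.247 CPM, than in the Controls, at 0.480 to 5.35 CPM, and most of these counts were those of Cyp2c40 and Cyp2c69. Of the 31-base words of Cyp2c40 and Cyp2c69, 72.6% and 64.9% were shared with other Cyp2c genes. Whether their few reads came from these genes is therefore uncertain.

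Genes of the proteins that serve and regulate P450 enzymes fell more often than they rose. Of 27 such genes 26 were tested, 7 fell, 2 rose and 17 did not pass, beside the 9.08% of all tested genes that fell and the 10.6% that rose, with a median log2 fold change of -0.04. Ahr, the ligand-activated factor that drives Cyp1 genes, had 55.8, 57.6, 72.4, 46.1 and 54.5 CPM in KO-labelled libraries, against 117, 116, 78.2, 102 and 105 CPM in Controls. The groups did not overlap, with Control 3 lowest of the Controls, and Ahr fell 1.81-fold (log2 fold change -0.85 ± 0.13, adjusted p = 9.8e-04 in edgeR's test). Its partner Arnt was at 64.4 ± 3.45 CPM in KO-labelled and 63.3 ± 3.94 CPM in Control libraries and did not pass. Ephx1, the epoxide hydrolase that acts on P450 products, had 122, 140, 117, 141 and 123 CPM in KO-labelled libraries, against 77.7, 87.3, 78.5, 87.2 and 81.0 CPM in Controls. Every KO-labelled library was above every Control, and Ephx1 rose 1.56-fold (log2 fold change 0.64 ± 0.06, adjusted p = 1.9e-05 in edgeR's test).

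Fdx1, the ferredoxin that feeds mitochondrial P450 enzymes such as Cyp27a1, fell (8.48 ± 0.664 CPM in KO-labelled and 12.3 ± 1.56 CPM in Control libraries, log2 fold change -0.54 ± 0.10, adjusted p = 0.0025 in edgeR's test). The bile acid receptor Nr1h4 fell (3.02 ± 0.887 CPM in KO-labelled and 5.66 ± 0.873 CPM in Control libraries, log2 fold change -0.91 ± 0.19, adjusted p = 0.0052 in edgeR's test). The reductase Por, which serves all microsomal P450 enzymes, was at 83.2 ± 7.65 CPM in KO-labelled and 87.1 ± 10.6 CPM in Control libraries (SD, n = 5 each) and did not pass (log2 fold change -0.07 ± 0.08, adjusted p = 0.65 in edgeR's test). The other calls passed narrowly. The repressor Ahrr (log2 fold change -0.70), the Ahr target Tiparp (-0.28), the electron donor Cyb5a (-0.27) and the haem protein Pgrmc1 (-0.21) fell, and the retinoid X receptor Rxrb (0.20) rose, at adjusted p of 0.022 to 0.048 in edgeR's test. Each of these 5 calls was lost when single libraries were left out. For Ahrr these were KO-labelled library 1, 2, 3 or 5 or Control 1, 2, 3 or 4 (adjusted p of 0.056 to 0.11). For Tiparp they were KO-labelled library 2, 4 or 5 or Control 1, 2 or 5 (0.058 to 0.084), and for Cyb5a KO-labelled library 2, 3 or 4 or Control 2, 3, 4 or 5 (0.051 to 0.11). For Pgrmc1 they were KO-labelled library 1, 2, 4 or 5 or Control 2 or 4 (0.059 to 0.10), and for Rxrb KO-labelled library 4 or 5 or Control 1 or 5 (0.050 to 0.063). On deposited TPM the direction of Ahrr turned, with limma log2 fold changes of 0.17 and 0.38 at pseudocounts of 1 and 0.1. Alas1, the first enzyme of haem synthesis (-0.27, adjusted p = 0.053), and Nr1i3, the receptor CAR that induces drug-metabolising genes (-1.20, adjusted p = 0.10), did not pass edgeR's test. Alas1 passed without KO-labelled library 1 (0.040), Control 1 (0.030) or Control 5 (0.047), and Nr1i3 without Control 5 (0.042).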

How the data were processed

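Per the submitters' processing notes, the tools were Trim Galore 0.6.4 for trimming and kallisto 0.4.6 for quantification, with the GRCm38.p6 build. For each library the authors deposited expected counts (estimated counts per gene, not whole) and TPM. How transcripts were summed to genes and whether strand was used is not stated in the sources at hand. GENCODE M21 gave symbols to 55144 of 55385 identifiers, of which 54487 had the same version. Kallisto divides reads among near-identical transcripts, which makes values of those single Cyp2a, Cyp2c, Cyp2d, Cyp3a and Cyp4a genes that share much sequence uncertain.

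Rounded counts went into edgeR 4.0.16 under R 4.3.3 (filterByExpr with a minimum count of 10, TMM factors of 0.94 to 1.04, robust quasi-likelihood fit on genotype alone, Benjamini-Hochberg adjustment, threshold 0.05). After the filter 15043 genes remained, with 99.87 to 99.90% of each library's counts. A second fit replaced P450 genes by subfamily sums (15019 features). All p-values are two-sided and adjusted over all features. CPM used TMM-scaled library sizes, and levels are compared between genes in TPM only. Depth was nearly equal. Precision is limited by the spread between libraries and, for genes near 1 CPM, by low counts as well. Some of these low genes spread widely too, such as Cyp7a1, whose Controls ran from 0.171 to 3.46 CPM. Within groups, chi-square per degree of freedom between libraries was 10.4 to 29.6, so none was a repeat. The procedure was checked on simulated counts.

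Lists of cell markers and of pericentral, sex-biased and partner genes came from general knowledge. The P450 members and the lists were chosen with earlier results of these data known. Values are printed for called genes and subfamilies, singly or as a range, for those at 5 CPM or more, and for called partners. Promoter windows are from RefSeq (GRCm38.p6), with entries for 76 of 99 members. Alternatives were DESeq2 1.42.0, limma-voom (limma 3.58.1), 2 other scalings, no filter or a stricter one (1 CPM in 5 libraries), limma on log2 TPM with pseudocounts of 1 and 0.1, the replicate number as a block, the hepatocyte covariate, each library left out, and Controls 4 and 5 left out together. A covariate for sex was not run, because all 10 libraries carried Y-linked transcripts and Xist was at most 0.0436 CPM.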

Additional observations from a re-analysis of the deposited data

Results flagged for a closer look

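In a group of 5 libraries, 8 of 164 groups examined held a library far from the other 4, where chance alone flags about 1 group in 20. On the KO-labelled side, library 4 was high for Cyp4f13 (19.0 CPM, next 15.5) and for Cyp2c54 (0.715 CPM) and low for Cyp2r1 (1.93 CPM). KO-labelled library 1 was high for Cyp1b1 (9.36 CPM, next 5.71) and low for Cyp2d22 (91.0 CPM, next 112), and KO-labelled library 2 was high for Cyp4f14 (5.46 CPM). On the Control side, Control 4 was high for Cyp4a10 (9.18 CPM, next 3.07) and for Slc1a2 (16.1 CPM, next 6.01). Without KO-labelled library 1 the log2 fold change of Cyp1b1 was -3.12.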

How the results depend on the processing

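Over 21 alternatives, 15 of the 31 called P450 genes kept their call in every fit that tested them, and none of the 31 changed direction. The 15 were Cyp1b1, Cyp26a1, Cyp27a1, Cyp2ab1, Cyp2d22, Cyp2d40, Cyp2e1, Cyp2u1, Cyp3a11, Cyp3a25, Cyp4a10, Cyp4a12b, Cyp4b1, Cyp4v3 and Cyp7b1. Cyp2d40 did not pass the stricter filter and was not tested with it. Of the 15, Cyp2ab1, Cyp2d40, Cyp4a10 and Cyp4a12b were over the main filter in fewer than 5 KO-labelled libraries. Of the 16 called genes that lost their call, 13 lost it under limma-voom alone (Cyp1a2, Cyp2a5, Cyp2c29, Cyp2c37, Cyp2c50, Cyp2c54, Cyp2c67, Cyp2c68, Cyp2d9, Cyp2d10, Cyp2d26, Cyp4a12a and Cyp8b1), Cyp2c23 in 12 alternatives (adjusted p of 0.0574 to 0.134), Cyp2c70 in 15 (0.05 to 0.156) and Cyp39a1 in 10 (0.0528 to 0.161). Limma-voom called 15 P450 genes lower, against 30 in the main test, and 13 subfamilies, against 15. The count of genes that fell was 28 to 33 with 1 library left out, and that of subfamilies 15 to 16. The counts of genes and of subfamilies that rose were 0 to 1 with 1 library left out, and 0 with no filter, with the hepatocyte covariate, with the replicate block and without Controls 4 and 5. Correlations of deviations from the group means were -0.196 to 0.350 for the 5 same-numbered pairs, 3 of them over 0.1, and -0.393 to 0.347 for the 20 others. Of 10 libraries 3 correlated best with their own number, so the replicate number was not taken as a pairing. With the replicate block 34 genes and 17 subfamilies fell. The causes of these changes were not tested.

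Among the genes and sums followed through the alternatives, directions turned in 31 cases. All but the Ahrr values were in genes or sums that the main test did not call. Not every marker and partner gene was followed in this count. Outside it, Por turned from -0.065 to 0.022 with the hepatocyte covariate, and Trf, a marker in that covariate, from -0.051 to 0.475. On log2(TPM + 1) and log2(TPM + 0.1) the log2 fold changes were 0.0677 and 0.0694 for Cyp20a1, 0.0643 and 0.0667 for Cyp2j6, 0.0491 and 0.0503 for the Cyp2j sum, 0.0539 and 0.0541 for Alb, and 0.169 and 0.378 for Ahrr. With library size alone Cyp20a1 had 0.0154 and Cyp2j6 0.0138. With the hepatocyte covariate Cyp2j5 had 0.0595, Cyp4f14 0.369, the Cyp2j sum 0.0173 and Alb, itself one of the covariate's markers, 0.512 with an adjusted p of 0.04. Cyp4f18 had -0.0627 with limma-voom, -0.082 with the replicate block and -0.149 without Controls 4 and 5. Without that pair of Controls Cyp2j6 had 0.0454 and the Cyp2j sum 0.0188. With 1 library left out, values ran from -0.33 to 0.116 for Alb, -0.0594 to 0.014 for Cyp20a1, -0.0749 to 0.00393 for Cyp2j6, -0.11 to 0.0044 for the Cyp2j sum and -0.464 to 0.291 for Cyp4f18. Depth limits what can be said of the 50 genes that were not tested.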
